A study of Mus musculus with 2 samples.

Results

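Ephrins and Eph receptors were followed through the embryonic mouse telencephalon with and without conditional loss of the histone variant H2A.Z. The 10 genes were taken by name, each matched by its Ensembl identifier in the deposited table: the ephrin-A genes Efna2, Efna3 and Efna5, the ephrin-B genes Efnb1, Efnb2 and Efnb3, and the EphA receptor genes Epha3, Epha4, Epha5 and Epha7. They were 10 of 19202 genes, and all 10 were among the 14586 genes that reached 1 CPM (counts scaled to the size of the library) in the higher library. RNA was sequenced from telencephalic tissue of C57BL/6-background embryos at embryonic day 12, from an H2AZ conditional knockout (H2AZcKO, the knockout below) and from a floxed control (H2AZfl/fl, the control below) that carries the same conditional allele. The tissue is labelled telencephalic, but the sample titles say brain and the protocol for RNA names dissected cortex. In the sources used here the Cre driver is not given, so the cells that carry the deletion are not known. The design text mentions triplicate sequencing, whereas the table holds 1 column of counts per genotype, called a library here, so no difference below has a replicate check and no test of the genotype was run.

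Eph receptors are the largest family of receptor tyrosine kinases, and their ligands, the ephrins, are held on the membrane of the neighbouring cell. Ephrin-A proteins are anchored by a lipid and mainly bind EphA receptors, while ephrin-B proteins cross the membrane and mainly bind EphB receptors, with EphA4 binding both classes. Contact signals in both directions, into the receptor cell and back into the ligand cell, and in the developing forebrain these signals are known for repulsion of growing axons, for sorting and spacing of cells, and for control of progenitor cells.

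Total counts were 8839840 in the knockout and 8891198 in the control. The targeted gene H2afz stood at 191 against 289 CPM, with a ratio of 0.661 (0.621 to 0.703), and the count covers the whole gene, not the deleted part alone. Xist was at 732 CPM in the knockout and 22.2 CPM in the control, and the Y-linked genes Ddx3y, Eif2s3y, Kdm5d and Uty had 0 to 5 counts against 190 to 647, so the libraries differ in their sex-linked transcripts as well as in genotype. All 10 telencephalic markers were present in both libraries, and Gsx2 (1.43, 1.14 to 1.79), Dlx1 (1.26, 1.21 to 1.31) and Dlx2 (1.21, 1.14 to 1.28) lay farthest from 1. Of the 10, 8 lay above 1 and 2 below. Those below, named after their values were seen, were Pax6 (0.972, 0.898 to 1.05) and Eomes (0.982, 0.931 to 1.04). Ratios are knockout over control after TMM scaling of the libraries, and the values in brackets are exact 95% binomial (Clopper-Pearson) intervals that cover counting error only. Summed over all 19202 genes, the scaled counts had a ratio of 1.0286 (1.0276 to 1.0295), beside which the summed ratios below can be read. Log2 ratios were taken on log2(CPM + 1), a scale that shrinks the difference of genes with few counts. A gene was called past the threshold at a log2 ratio of 0.32 or more in size. On the scale of CPM + 1 that is 25% higher, or 0.8 of the control or less, and the printed ratios lack the added 1. In bulk tissue, fewer cells of a type and less RNA per cell cannot be told apart.

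H2A.Z is best known at nucleosomes beside transcription start sites, so the sequence before the starts of 3 of the genes is shown: Efna5, which lay farthest below the control, Efnb2, the ephrin-B gene with the lowest ratio, and Epha3, the one gene whose interval lay wholly above 1. Each run is the 250 bases before the RefSeq start (GRCm38.p6), 5′ to 3′ on the strand of the gene, with every CG dinucleotide in capitals.
Efna5, chr17:62881318-62881567, minus strand: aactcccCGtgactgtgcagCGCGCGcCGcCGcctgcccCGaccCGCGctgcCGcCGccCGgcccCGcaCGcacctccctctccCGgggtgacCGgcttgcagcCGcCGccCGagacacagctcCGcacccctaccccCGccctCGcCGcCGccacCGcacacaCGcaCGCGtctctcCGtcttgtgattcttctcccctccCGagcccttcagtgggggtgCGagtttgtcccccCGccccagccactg
Efnb2, chr8:8661243-8661492, minus strand: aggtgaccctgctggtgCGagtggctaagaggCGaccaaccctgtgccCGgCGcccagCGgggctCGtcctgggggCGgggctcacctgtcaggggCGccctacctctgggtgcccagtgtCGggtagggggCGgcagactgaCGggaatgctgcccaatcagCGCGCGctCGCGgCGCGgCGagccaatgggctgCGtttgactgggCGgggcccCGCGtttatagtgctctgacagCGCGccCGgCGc
Epha3, chr16:63864176-63864425, minus strand: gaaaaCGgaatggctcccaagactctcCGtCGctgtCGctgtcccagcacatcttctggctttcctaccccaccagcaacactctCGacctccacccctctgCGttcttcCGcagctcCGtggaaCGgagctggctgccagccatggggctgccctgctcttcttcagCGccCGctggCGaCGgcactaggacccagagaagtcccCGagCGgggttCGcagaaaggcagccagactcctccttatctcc
The Efna5 stretch held 32 CG dinucleotides, a number that 4.58% of the 32851 promoters in the same table reach or pass. The Efnb2 stretch held 27 (8.56% of promoters) and the Epha3 stretch 16 (25.4%). CG reads the same on both strands. Over all promoters the median was 6. A promoter was found for 9 of the 10 genes, with 11 starts in all, and these held 13 to 32 CG dinucleotides, so every start matched lay above the median of all promoters. The fewest, 13, were at Efnb1, whose interval lay below 1. The starts of Efna3, the gene with the highest ratio of the 10, held 31 and 19. A relation between the number of CG dinucleotides and the ratio was not tested. Binding of H2A.Z was not measured in these libraries.

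Per transcript length, the ephrin-B genes were the most abundant of the ligands. In the control, Efnb1 stood at 102 CPM per kilobase of its longest transcript (98.6 to 106, exact Poisson interval at 95%), Efnb3 at 61.4 (58.5 to 64.3) and Efnb2 at 47.6 (45.6 to 49.7). The ephrin-A genes followed, with Efna2 at 27.5 (25.2 to 29.9), Efna3 at 12.1 (10.6 to 13.6) and Efna5 at 5.20 (4.48 to 5.99). No neighbours in this order had overlapping intervals, and the order of the 6 ligands was the same in the knockout. Among the receptors, Epha4 (26.4, 25.1 to 27.8) and Epha5 (24.7, 23.6 to 26.0) had overlapping intervals in the control, Epha3 lay lower at 18.0 (16.8 to 19.2) and Epha7 was the lowest at 6.23 (5.62 to 6.89). In the knockout, Epha4 and Epha5 stood at 25.7 and 25.6 CPM per kilobase. With all annotated exons as the length, a choice made after the data were seen, Epha3 (11.7 CPM per kilobase) came before Epha5 (10.8) in the control, since the annotated exons of Epha5 sum to 16739 bases against 7328 in its longest transcript.

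**Figure D1:**
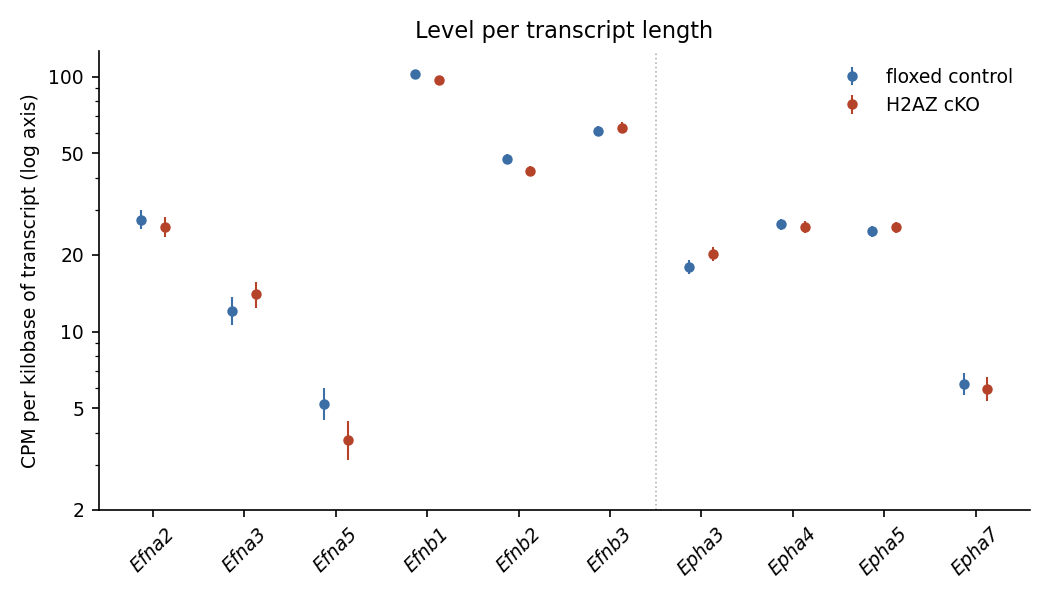
Level per length of the 6 ephrin genes (left of the dotted line) and 4 Eph receptor genes (right) in the control and the knockout, in CPM per kilobase of the longest transcript on a log axis; points are single libraries and bars are exact 95% Poisson intervals. Efnb1 is highest at 102 and 96.6 CPM per kilobase, and Efna5 is lowest at 5.20 and 3.76.

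The 10 genes lay close together between the genotypes. Their median log2 ratio was -0.0494, beside 0.0060 over all genes tested, and 6 lay below 0 and 4 above, where 49.0% of all genes tested lay below and 51.0% above. One gene, Efna5, was past that threshold in either direction, where 17.7% of all genes tested were, and 6.21% of the 8676 genes at 20 CPM or more, a level that each of the 10 reached in its higher library. None reached 1.5-fold (4.95% of all genes tested). The counting interval left out 1 for 4 of the 10 genes, below 1 for Efna5, Efnb1 and Efnb2 and above 1 for Epha3. That was true of 23.7% of all genes tested (11.2% below and 12.6% above) and of 31.8% of those at 20 CPM or more, a background chosen after the data were seen.

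**Figure D2:**
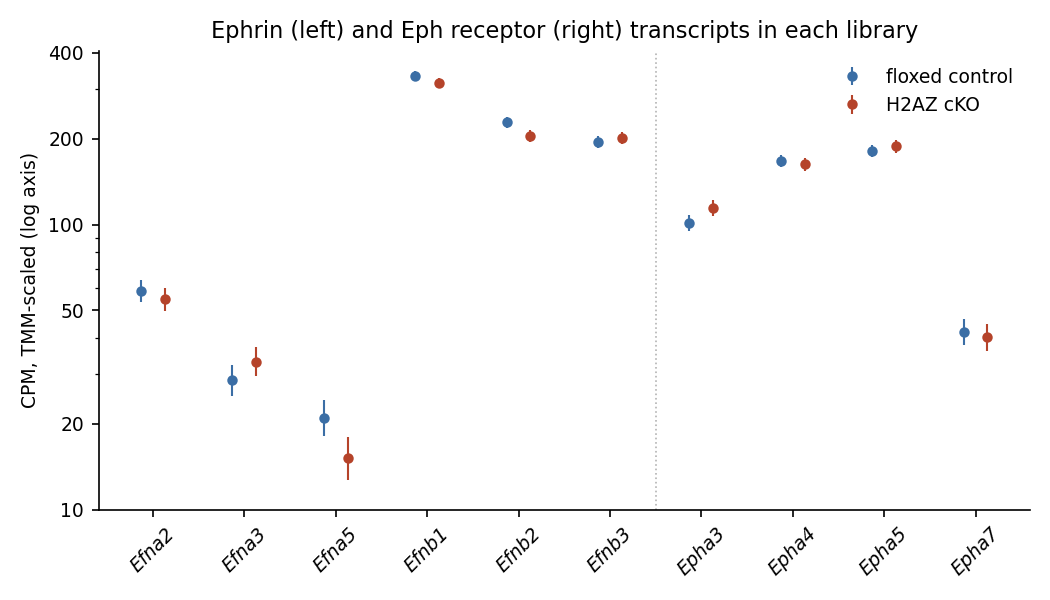
Scaled CPM of each gene in the control and the knockout on a log axis, with ephrins left and Eph receptors right of the dotted line; points are single libraries and bars exact 95% Poisson intervals. The bars of the 2 libraries are apart for Efna5 (21.0 against 15.1 CPM) and Efnb2 (228 against 205 CPM) and overlap for the other 8 genes. The share of all genes tested with bars apart was not taken, so this count has no background.

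Of the ephrin-A genes, Efna5 (ENSMUSG00000048915, chr17:62604184-62881317) was lower in the knockout. Efna5 encodes ephrin-A5, a repulsive cue for axons that carry EphA receptors, known from the map of retinal and thalamic projections. It had 132 counts in the knockout and 189 in the control, or 15.1 against 21.0 CPM. The ratio was 0.723 (0.574 to 0.907), a log2 ratio of -0.44, and 5.44% of all genes tested had a lower one. Its interval lay wholly below those of Efna3, Efnb3, Epha3 and Epha5 and overlapped those of the other 5 genes. The gene was past the threshold with each pseudocount, scaling and correction tried, from -0.37 to -0.48 on the log2 scale.

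Efna2 (ENSMUSG00000003070, chr10:80179482-80190010), which encodes ephrin-A2, another ligand of EphA receptors, had 477 counts in the knockout and 528 in the control. That is 54.7 against 58.6 CPM, a ratio of 0.935 (0.824 to 1.06) whose interval holds 1. Efna3 (ENSMUSG00000028039, chr3:89313899-89322965), which encodes ephrin-A3, had the highest ratio of the 10, with 288 counts against 257, or 33.0 against 28.5 CPM. Its ratio of 1.16 (0.976 to 1.38) also holds 1. Exons of Efna3 share 344 bases with the antisense transcript Gm15998, and the use of strand in counting was not given in the sources used here. Efna3 lies between Efna1 and Efna4 in a cluster of 66.3 kb on chromosome 3, whose outer genes stood at ratios of 0.943 (0.658 to 1.35) and 0.920 (0.757 to 1.12). Summed, the 3 ephrin-A genes had 897 and 974 counts, a ratio of 0.953 (0.869 to 1.04).

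Efna5 was lower alongside a marker list of another brain region. The 12 markers of the diencephalon and hypothalamus summed to 51.7 CPM in the knockout and 132 CPM in the control, a ratio of 0.393 (0.352 to 0.438). Of the 11 tested, 10 were past the threshold on the lower side, where 9.79% of all genes tested were. The lowest of these markers on the log2 scale were Nkx2-4 (0 and 25 counts), Nkx2-2 (5 and 44) and Sox14 (2 and 32). Rax, which did not reach 1 CPM, also had 0 counts in the knockout, against 9. Irx3, named after its value was seen, was the 1 tested marker of the list above 0, with 21 and 20 counts (1.09, 0.560 to 2.11). The markers of the ventral telencephalon summed to 1095 and 837 CPM, a ratio of 1.31 (1.27 to 1.35). Of these 10 markers, 6 were past the threshold on the higher side, where 7.94% of all genes tested were. The highest were Lhx8 (1.93, 1.63 to 2.29), Sst (1.67, 1.52 to 1.83) and Nkx2-1 (1.58, 1.45 to 1.73). Isl1 of the same list, named after its value was seen, was lower, with 478 and 612 counts (0.808, 0.715 to 0.912). The part of the tissue taken in the ratio of Efna5 or of any other gene here was not tested.

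The ephrin-B genes held Efnb2 and Efnb1, both lower by small amounts, and Efnb3, whose interval holds 1. Efnb2 (ENSMUSG00000001300, chr8:8617434-8660773) encodes ephrin-B2, known as a marker of arterial endothelium. It had 1783 counts in the knockout and 2058 in the control, or 205 against 228 CPM. The ratio was 0.896 (0.841 to 0.955), and the interval stayed below 1 at the 99% level (0.824 to 0.975). It lay wholly below the intervals of Efna3, Efnb3, Epha3 and Epha5. Endothelial markers summed to 168 and 179 CPM, a ratio of 0.934 (0.870 to 1.003). Of the 12, 9 lay below 0 and 3 above, where 49.0% and 51.0% of all genes tested did. The lowest were Sox17 (0.640, 0.377 to 1.07), Tek (0.80, 0.519 to 1.23) and Tie1 (0.835, 0.664 to 1.05). Sox18 (1.05, 0.765 to 1.43), named after its value was seen, was the highest. The interval left out 1 for 0 of the 12, where it did for 23.7% of all genes tested. The part of these markers in the ratio of Efnb2 was not tested.

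Efnb1 (ENSMUSG00000031217, chrX:99136130-99148991) encodes ephrin-B1, a ligand whose mosaic loss disturbs the sorting of cells into compartments. It was the most abundant of the 10, with 2744 counts in the knockout and 3003 in the control, or 315 against 333 CPM. The ratio was 0.945 (0.897 to 0.996), and at the 99% level the interval held 1 (0.883 to 1.01). Efnb1 is X-linked, and Xist and the Y-linked genes differed between the libraries as given above. The 508 tested genes of the X chromosome had a median log2 ratio of -0.0052, beside 0.0061 for autosomal genes, and the part of embryo sex in the ratio of Efnb1 was not tested.

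Efnb3 (ENSMUSG00000003934, chr11:69554092-69560205) encodes ephrin-B3, a midline barrier to axons that carry EphA4. It had 1751 counts in the knockout and 1761 in the control, or 201 against 195 CPM, a ratio of 1.03 (0.962 to 1.10). Its log2 ratio of 0.0406 went to 0.0001 with scaling by total count and to -0.0246 once a trend with length of transcript, base composition (GC content) and level was taken out, so it has no settled direction. Summed, the ephrin-B genes had 6278 and 6822 counts, a ratio of 0.952 (0.920 to 0.985).

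Of the EphA receptors, Epha3 was higher and the other 3 had intervals that hold 1. Epha3 (ENSMUSG00000052504, chr16:63543538-63864158) encodes a receptor for ephrin-A ligands, ephrin-A5 among them. It had 998 counts in the knockout and 917 in the control, or 114.5 against 102 CPM. The ratio was 1.13 (1.03 to 1.23). Its lower bound was 0.9998 with scaling by total count and also 0.9998 at the 99% level, so the call depends on both choices. Its interval lay wholly above those of Efna5, Efnb1 and Efnb2.

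Epha4 (ENSMUSG00000026235, chr1:77367185-77515088), the receptor that binds ephrins of both classes, had 1417 counts in the knockout and 1506 in the control. That is 163 against 167 CPM, a ratio of 0.973 (0.905 to 1.05). Epha5 (ENSMUSG00000029245, chr5:84054761-84417382), an EphA receptor of neurons, had 1638 and 1635 counts, or 188 against 181 CPM, a ratio of 1.04 (0.967 to 1.11). Epha7 (ENSMUSG00000028289, chr4:28813131-28967499), a receptor with kinase and truncated isoforms that a count per gene does not separate, had 351 and 379 counts, or 40.3 against 42.0 CPM. Its ratio was 0.958 (0.826 to 1.11). For each of these 3 receptors the interval holds 1, and it is widest for Epha7, which has the fewest counts of the receptors. Summed, the 4 receptors had 4404 and 4437 counts, a ratio of 1.03 (0.985 to 1.07).

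**Figure D3:**
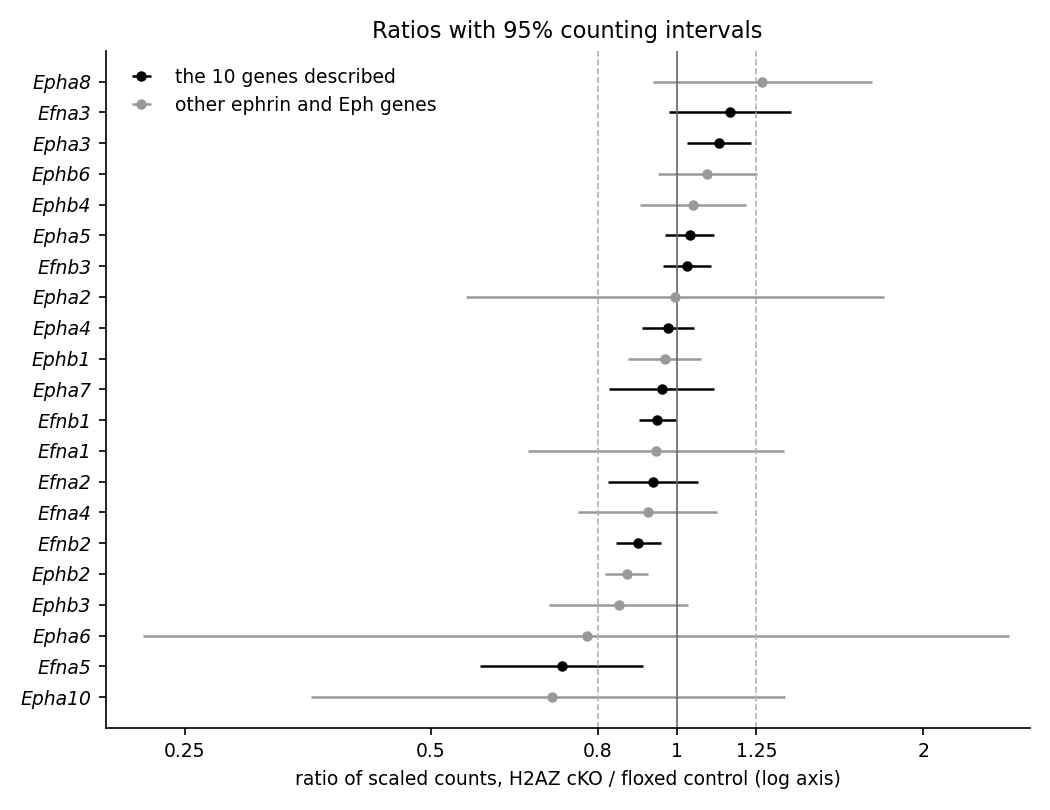
Ratio of scaled counts, knockout over control, on a log axis for the 10 genes described (black) and the other ephrin and Eph genes in the table (grey), sorted by ratio. Points are the ratios, bars the 95% counting intervals, and dashed lines 0.8 and its inverse. The threshold was set on log2(CPM + 1), so Epha8 at 1.27 lies past a dashed line without being called. Efna5 at 0.723, Efnb2 at 0.896 and Efnb1 at 0.945 lie below 1 with their whole bars, and Epha3 at 1.13 above it; the grey bar wholly below 1 is Ephb2.

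Summed, the 6 ligands were slightly lower in the knockout, while the interval of the 4 EphA receptors holds 1. The difference between these ratios was not tested. With the rest of the family added, the 8 ephrin genes had a summed ratio of 0.951 (0.922 to 0.982). The 13 Eph receptor genes had 0.977 (0.948 to 1.01), and the intervals of these sums overlap. The 6 ephrin genes together had 7175 counts in the knockout and 7796 in the control, a ratio of 0.952 (0.922 to 0.983), and their median log2 ratio was -0.0884. The median of the 4 receptors was 0.0064. Efnb1 alone gave 2744 and 3003 of the ligand counts, so the sum mostly follows the ephrin-B genes. Once the same trend was taken out, the medians were -0.16 for the ligands and 0.0346 for the receptors. The receptors have the longer transcripts, 5663 to 7328 bases against 2131 to 4793 for the ligands, and across 14543 genes, which are not independent replicates, the log2 ratio was correlated with log2 transcript length at Pearson's r of -0.19. Of the 45 pairs among the 10 genes, 9 had intervals that do not overlap, and the lower gene of the pair was Efna5 or Efnb2 in 8 of them and Efnb1 in the other. The share of such pairs among all genes tested was not taken, so the number of pairs has no background.

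**Figure D4:**
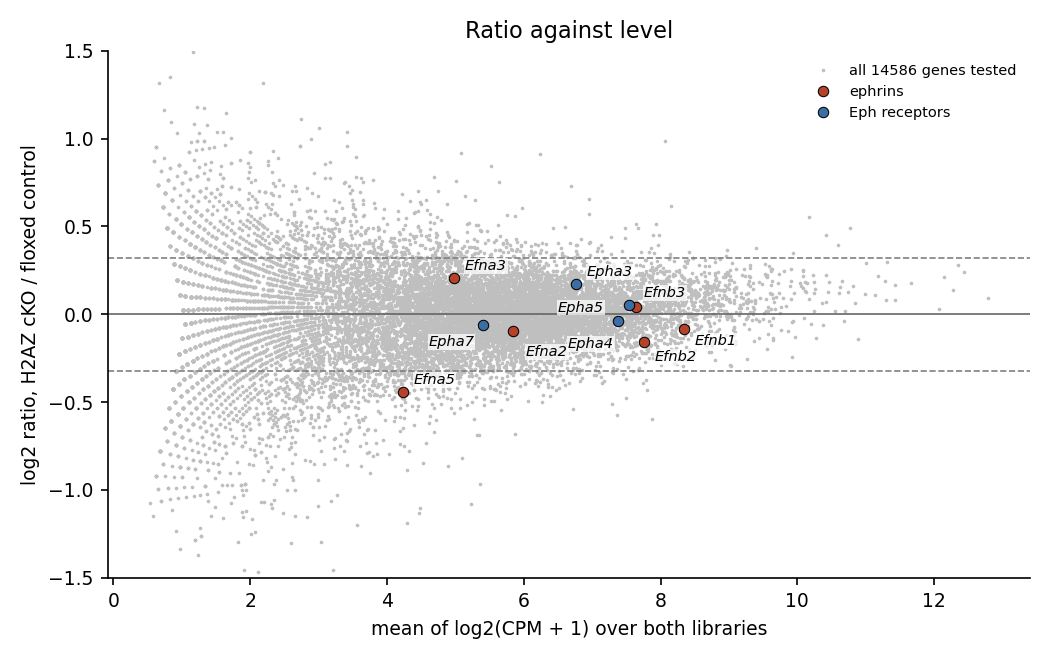
Log2 ratio, knockout over control, against the mean of log2(CPM + 1) for all 14586 genes tested (grey), with the 6 ephrins in red and the 4 Eph receptors in blue; dashed lines mark the threshold of 0.32, and 16 genes lie beyond the axis at 1.5. Efna5 at -0.44 is the one coloured point outside the dashed lines.

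The rest of the family was read from a list of 12 genes, of which 11 were in the table and 10 reached 1 CPM. Their median log2 ratio was -0.0623, with 7 below 0 and 3 above, where 49.0% and 51.0% of all genes tested were. One of the 10, Epha10, was past the threshold on the lower side (17 and 25 counts, ratio 0.704, 0.357 to 1.36), where 9.79% of all genes tested were, and its interval holds 1. In this list 1 gene had an interval that left out 1. That was true of 23.7% of all genes tested and of 31.8% of those at 20 CPM or more. The gene was Ephb2, an EphB receptor of axons that cross the midline, with 2041 counts against 2435, or 234 against 270.0 CPM. Its ratio was 0.867 (0.817 to 0.920). Ephb3, an EphB receptor that shares ligands with Ephb2, stood at 191 and 233 counts, a ratio of 0.848 (0.697 to 1.03). Epha8, the neighbour of Ephb2 on chromosome 4, had 97 and 79 counts, a ratio of 1.27 (0.934 to 1.73). Epha6 had 6 and 8 counts, below 1 CPM in both libraries. Over all 21 family genes in the table the summed counts were 15728 and 16869, a ratio of 0.965 (0.944 to 0.986).

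Genes that carry the signal inside the cell were read from a list of 38, all tested, with kinases, exchange factors, adaptors and scaffolds. Their median log2 ratio was -0.0332, with 26 below 0 and 12 above, where 49.0% and 51.0% of all genes tested were. Past the threshold were 2, Abl2 lower and Ngef higher, where 9.79% and 7.94% of all genes tested were. Abl2, a kinase that acts on the actin cytoskeleton, had 384 and 513 counts, a ratio of 0.774 (0.677 to 0.886). Ngef encodes ephexin, an exchange factor that EphA4 activates for growth cone collapse, and had 76 and 61 counts, a ratio of 1.29 (0.908 to 1.84), so its interval holds 1. Pick1, a scaffold with a PDZ domain, had 564 and 709 counts, a ratio of 0.823 (0.736 to 0.921), and Kalrn, an exchange factor for Rac, had 556 and 686, a ratio of 0.839 (0.748 to 0.939). The interval lay below 1 for 9 of the 38 genes and above 1 for 2, where 11.2% and 12.6% of all genes tested did. Of the genes at 20 CPM or more, a level that most of the 38 reached, 31.8% had an interval that left out 1 on either side. Once the trend was taken out, the median of the list was -0.0084, beside -0.0069 for all genes tested.

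In the authors' deposited table, Efnb2 had an adjusted p of 0.000603, Efnb1 of 0.0186 and Efna5 of 0.0217, and the other 7 genes lay between 0.214 and 0.899. An adjusted p under 0.05 was given there to 9.55% of the 19202 genes. In the authors' deposited table the fold of Efna5 was 0.703 and that of Efnb2 0.871, and none of the 21 family genes was marked as significant, a mark that also asks for a 2-fold difference. The sources used here do not give the test behind these values or the samples that entered it, and they are printed as the authors' values only.

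Blood markers were also higher in the knockout library, and macrophage markers were higher in their sum. The 8 erythroid markers summed to 650 and 340 CPM, a ratio of 1.91 (1.83 to 2.0), and of the 7 tested Hbb-bh1 (2.76, 1.38 to 5.88), Hbb-y (1.99, 1.87 to 2.11) and Hbb-bs (1.90, 1.70 to 2.13) were the highest on the log2 scale. The 10 macrophage markers summed to 49.6 and 35.5 CPM, a ratio of 1.40 (1.21 to 1.62), led by Lyz2 (3.29, 1.88 to 6.05), Tyrobp (2.73, 1.32 to 6.05) and Trem2 (1.98, 0.910 to 4.54). Of these 10, 3 had an interval above 1, where 12.6% of all genes tested did. C1qb, named after its value was seen, stood at 56 and 65 counts (0.891, 0.612 to 1.29). Of 10 markers of meninges and mesenchyme 9 were in the table, and they summed to 40.3 and 41.8 CPM, and of the 8 tested Foxd1 (0.398, 0.171 to 0.853), Dcn (0.362, 0.129 to 0.891) and Col1a2 (0.718, 0.413 to 1.23) lay farthest from 1. Of the 8, 5 were below 0 and 3 above, where 49.0% and 51.0% of all genes tested were. Prrx1, named after its value was seen, was among the higher ones and gave 178 and 155 of the 351 and 377 summed counts. The 6 neuronal markers summed to 5614 and 5510 CPM, a ratio of 1.02 (1.01 to 1.03), with Gap43 at 1.14 (1.08 to 1.19), Map2 at 0.905 (0.875 to 0.935) and Tubb3 at 1.08 (1.06 to 1.10). The part of these cell types in the ratios of the ephrin and Eph genes was not tested.

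**Figure D5:**
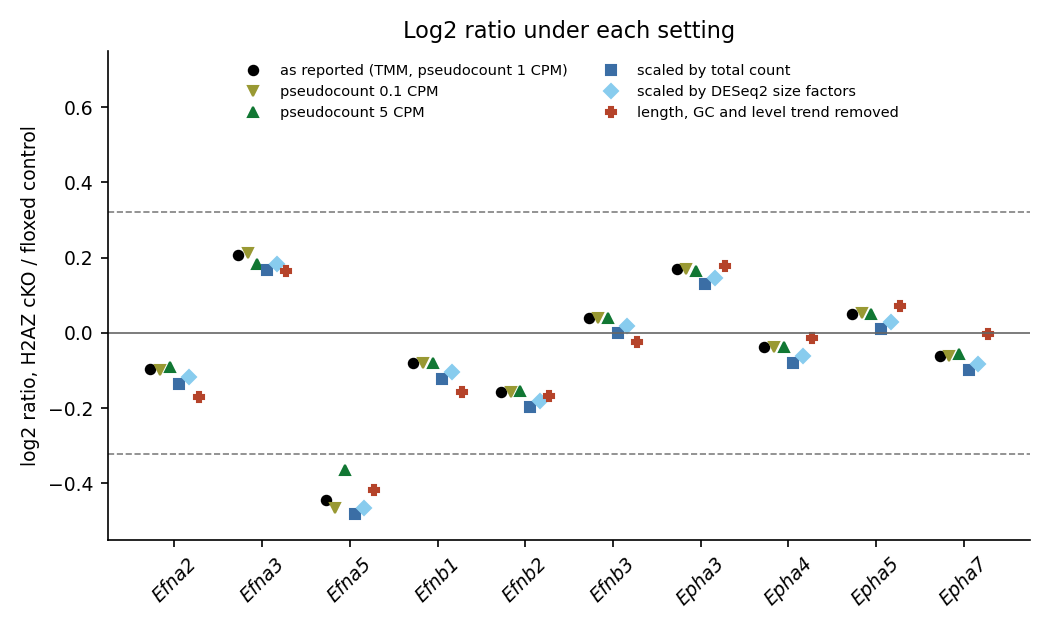
Log2 ratio, knockout over control, of each gene as reported and under 5 other settings (pseudocounts of 0.1 and 5 CPM, scaling by total count or DESeq2 size factors, and removal of the length, GC and level trend); dashed lines mark the threshold of 0.32. Efna5 lies below the lower dashed line in all 6 settings, and Efnb3 has one value below 0, at -0.0246.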

How the data were processed

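In the deposited table the authors give 1 column of whole-number read counts per genotype. The submitters' processing notes name Bowtie2 2.2.3, TopHat2 2.0.12, HTSeq 0.6.0 and mm9 without their roles. The deposited positions match GRCm38 instead: 99.5% overlap the same gene of GENCODE M21, as do all 10 genes described, 8 of them with identical ends. The deposited CPM values are the authors' counts scaled per library, within 0.01 read for all genes, with 0 counts written as 0.5 read. The authors' fold (a ratio), its log2 value and p-values are in the deposited table, from a test that the sources used here do not give. The column headed WT was read as the control, since the labels hold no other genotype.

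Libraries were scaled by TMM (factors 0.986 and 1.01, edgeR 4.0.16, R 4.3.3), with DESeq2 1.42.0 size factors as an alternative. Other steps ran in Python 3.11.15 with scipy 1.17.1 and were tested on simulated data. The pseudocount was 1 CPM and the floor 1 CPM in the higher library. At 0 counts, up to 0.339 and 0.337 CPM (3 counts) are allowed. Intervals leave out all but counting error, and reads lacking molecular identifiers are not independent molecules. Symbols were matched by identifier for 19112 genes. Length and GC content came from the longest GENCODE M21 transcript, and their trend with the ratio, together with that of level, was a joint linear and quadratic fit. The members and lists were chosen with earlier results of these data known. Named were the 10 genes and, by largest absolute log2 ratio, up to 4 of each pathway list and 3 of each marker list. Promoters come from RefSeq (GRCm38.p6).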

Additional observations from a re-analysis of the deposited data

How the results depend on the processing

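The median log2 ratio of the 10 genes stayed between -0.0895 and -0.0193 in every setting tried, and the one gene past a log2 ratio of 0.32 in size, Efna5, stayed past it except that at 1.5-fold and at 2-fold the count was 0. At the 99% level 2 genes rather than 4 had an interval that left out 1, and the share of all genes tested at that level was not taken. Of the 50 log2 ratios of single genes recomputed under another setting, 49 lay within the gene's counting interval, and Efnb1 moved to -0.16 after removal of the trend. Of the other ephrin and Eph genes, 2 passed with a pseudocount of 0.1 CPM and 0 with 5 CPM, with a level floor of 5 CPM, at 1.5-fold and at 2-fold. Of the Eph signalling genes, 1 passed with a pseudocount of 5 CPM, with scaling by total count and with DESeq2 size factors, and 0 at 1.5-fold and 2-fold. Over all genes, the count of 2586 past it was 866 with a pseudocount of 5 CPM, 1290 with a level floor of 5 CPM, 722 at 1.5-fold and 92 at 2-fold; the cause of these moves is that the pseudocount, the floor or the size shrinks the set by construction, while the cause of the moves with scaling was not tested. No paired analysis was possible because each genotype has 1 column, and for the same reason no replicate could be left out. Depth limits Epha2, Epha6 and Epha10, with 6 to 26 counts in a library.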
